A study of Mus musculus with 36 samples.

Results

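The Bach2 locus was followed by ATAC-seq, an assay that cuts and tags open DNA with a transposase, in mouse CD4+ T cells with and without HP1α or HP1γ. The locus was taken as every consensus peak whose midpoint lay nearest to a protein-coding transcription start site (TSS) of Bach2, or that overlapped its gene body. These rules gave 95 peaks of 71509 in all. The value of a peak was the number of reads in it, and levels are given in CPM, counts-per-million of the reads in peaks, after TMM scaling over all 36 libraries.

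BACH2 is a transcriptional repressor of the basic leucine zipper family. It pairs with small MAF proteins and binds sites that overlap those of AP-1 factors, and it restrains effector genes such as Prdm1 in naive T cells, in regulatory T cells (Treg) and in B cells. HP1α and HP1γ are chromosomal proteins that recognise methylated lysine 9 of histone H3 and act in heterochromatin and gene silencing.

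The 36 libraries fell into 12 groups of 3, from 2 mouse lines, 2 genotypes and 3 conditions. In the HP1α line, knockout (KO) mice carried a germline deletion made with a floxed Hp1a allele and CMV-cre, and the wild-type (WT) animals were littermates. In the HP1γ line, a floxed Hp1g allele was deleted in T cells by Cd4-cre, and the WT controls carried the floxed allele without Cre. Mice were of mixed 129/Sv and C57BL/6 background and 6 to 12 weeks old. Naive cells were CD62L+ CD44-/low CD4+ T cells of the spleen, enriched by negative selection and not transferred. Tconv were donor-reactive Vβ6+ CD4+ cells sorted by flow cytometry from the spleen of lethally irradiated C57BL/6J or CD45.1+ B6 hosts. The hosts had been given naive cells 3 weeks before, together with bone marrow of C57BL/6J and B6D2F1 mice. Tconv+Treg were the same cells from hosts that also received ex vivo expanded WT Treg. Each library was prepared from 50000 cells. The labels do not say whether replicates came from separate animals, so p-values measure the spread between these samples, which may be technical.

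Reads in peaks ranged from 1486053 to 96806542 per library. The study left out 3 HP1α libraries for low quality (WT Tconv+Treg replicate 3 and KO Tconv+Treg replicates 2 and 3), which left 2 WT libraries against 1 KO library in that condition. Promoter peaks of all 7 CD4 T cell markers were present, and no promoter peak was found for Cd79a, Ms4a1, Lyz2, Csf1r or Cd8a. Other markers did have one, namely Cd8b1 of CD8 T cells (group means, taken on the log2 scale, of 22.1 to 22.5 CPM per kb in naive cells and 2.24 to 5.06 elsewhere), the erythroid genes Klf1 (10.8 to 24.8 over all groups) and Gata1, the myeloid genes Itgam, Spi1 (8.46 to 11.8 for both in naive cells) and Cebpa, and the B cell genes Cd79b, Pax5 and Ebf1. The pooled promoter level of a list, the CPM of all its promoter peaks divided by their total width, was 18.5 to 24.5 CPM per kb for 4 naive-state genes in naive libraries and 8.15 to 12.9 elsewhere, and that of 5 effector genes was 1.73 to 2.11 and 6.84 to 14.8. Cd4 promoter peaks averaged 54.1 to 64.5 CPM per kb in the HP1γ KO groups against 9.58 to 11.2 in HP1γ WT, and the Cre transgene of this line carries Cd4 regulatory sequence. The peaks of Cbx5 and Cbx3, the genes of HP1α and HP1γ, do not check the deletions, and none was called changed. The labels name no sequencing run, and whether runs differed between conditions or lines was not tested.

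In GRCm39, Bach2 spans chr4:32238714-32586108 on the plus strand and has 7 exons. Of its 4 protein-coding transcripts, 3 start at the first base of the gene and 1 starts 178.7 kb further on. The 95 peaks covered 130960 bp. Of these, 25 lay upstream, with 8 between 120.7 and 99.6 kb and 17 between 89.6 and 9.2 kb before the first TSS. The remaining 70 overlapped the gene body, where introns 1 and 2 held 23 and 29 peaks. No peak covered the start of the shorter transcript, the nearest peaks ending 3.5 kb before it and starting 5.8 kb after it. The 12 most distal gene-body peaks were nearer to the TSS of Gja10 than to a Bach2 TSS. Upstream peaks from 79.9 to 9.2 kb before the TSS overlapped the lncRNA gene Gm42266, and peaks at +322.2 to +332.4 kb overlapped Bach2os, an antisense transcript. Peaks are named here by the distance of their midpoint from the first TSS. Their width ranged from 210 to 8060 bp with a median of 770 bp, against 750 bp for all peaks, and the 5 highest held 46.2% of the locus' summed CPM.

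The sequences of 6 windows, 1 of them at the promoter and the others centred on motif matches, are shown for peaks described in the results. All are from GRCm39, plus strand, 5′ to 3′. Capitals mark matches on either strand to TGANTCA, the core bound by AP-1 and BACH factors, or to ATCAAAG, the core bound by TCF and LEF factors. The 250 bases before the first TSS (chr4:32238464-32238713) had a GC content of 74.0% and held neither motif. The windows of the -111.8 kb peak (chr4:32126832-32127031) and the -58.8 kb peak (chr4:32179874-32180073) are shown because these peaks had the smallest p among those higher in Tconv. Each window was centred on a TGAGTCA of its peak, so that it holds this motif follows from its placement. The windows at +51.3 kb (chr4:32287938-32288137) and +90 kb (chr4:32329155-32329354) are from peaks of introns 1 and 2 that were lower in Tconv. They were chosen, after their values were seen, for their number of TCF and LEF matches. The +96.9 kb peak holds as many matches as the +90 kb peak. The +42.4 kb window (chr4:32280770-32280969) is from the intron 1 peak with the smallest p among those lower in HP1γ KO cells.
First TSS: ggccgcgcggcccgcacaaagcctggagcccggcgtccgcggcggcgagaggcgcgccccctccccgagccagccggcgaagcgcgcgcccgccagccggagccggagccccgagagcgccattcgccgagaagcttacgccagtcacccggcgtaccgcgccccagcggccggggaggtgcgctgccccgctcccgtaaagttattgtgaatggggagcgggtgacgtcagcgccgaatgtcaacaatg
-111.8 kb: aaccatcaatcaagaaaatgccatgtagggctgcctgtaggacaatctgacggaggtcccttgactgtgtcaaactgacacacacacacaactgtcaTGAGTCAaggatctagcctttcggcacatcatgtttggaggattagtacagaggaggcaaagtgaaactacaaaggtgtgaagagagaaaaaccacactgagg
-58.8 kb: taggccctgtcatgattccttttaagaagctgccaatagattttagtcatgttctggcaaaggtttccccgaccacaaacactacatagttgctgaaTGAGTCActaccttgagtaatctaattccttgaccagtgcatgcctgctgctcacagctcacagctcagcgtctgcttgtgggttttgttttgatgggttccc
+51.3 kb: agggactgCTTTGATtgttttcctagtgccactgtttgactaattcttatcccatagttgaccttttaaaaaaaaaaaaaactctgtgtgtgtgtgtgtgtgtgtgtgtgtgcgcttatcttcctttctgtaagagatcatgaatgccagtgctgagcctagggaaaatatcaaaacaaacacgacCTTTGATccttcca
+90 kb: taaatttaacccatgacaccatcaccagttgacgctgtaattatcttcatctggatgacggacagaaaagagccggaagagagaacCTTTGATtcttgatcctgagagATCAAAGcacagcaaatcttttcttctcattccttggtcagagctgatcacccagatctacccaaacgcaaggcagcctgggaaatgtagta
+42.4 kb: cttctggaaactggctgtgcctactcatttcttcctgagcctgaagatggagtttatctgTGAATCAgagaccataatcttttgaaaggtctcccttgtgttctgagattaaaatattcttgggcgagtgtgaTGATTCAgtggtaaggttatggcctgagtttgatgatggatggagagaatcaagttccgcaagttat

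The first comparison asked how the locus differed between naive cells and Tconv. Most of it was less accessible in Tconv. A peak was called when its adjusted p was under 0.05 and its log2 fold change over 1 in size (edgeR's quasi-likelihood test with Benjamini-Hochberg adjustment over all peaks, as for each adjusted p given here). In HP1γ WT cells 69 of the 95 peaks were called lower and 7 higher, where 22% of all peaks were called lower and 24.5% higher, and 46.5% in either direction. In HP1γ KO cells 70 were lower and 7 higher (20.6% and 22.4% of all peaks, 43% in either direction). In HP1α WT cells 65 were lower and 5 higher (17.5% and 24.9%, together 42.5%), and in HP1α KO cells 72 were lower and 6 higher (19% and 23.5%, together 42.6%). The median log2 fold change of the locus was -2.22 in HP1γ WT, -2.22 in HP1γ KO, -1.85 in HP1α WT and -2.07 in HP1α KO, against medians over all peaks of 0.08, 0.06, -0.03 and -0.05. Without HP1α WT Tconv replicate 1 the HP1α WT median was -0.97. Each library is a bulk of cells, so a lower share of cells with an open site and less opening per cell cannot be told apart.

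The 2 lines, which share no library, were set side by side. Of the 95 peaks, 63 were lower in WT cells of both lines, 5 were higher in both and 0 were called in opposite directions. In KO cells these counts were 68, 6 and 0. Of all peaks, 16.4% were lower and 21.5% higher in both lines in WT cells, and 16.9% and 19.1% in KO cells, with 5 called in opposite directions in each genotype. Across peaks, which are not independent of each other, the log2 fold changes of the lines had a Pearson's r of 0.94 in WT and 0.97 in KO cells, and a Spearman's rho of 0.86 and 0.91. Over all peaks r was 0.95 and 0.93, and rho 0.93 and 0.94. In all, 62 peaks were lower in each of the 4 comparisons and 5 were higher in each. Of the others, 14 were called in some comparisons and 14 in none.

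**Figure D1:**
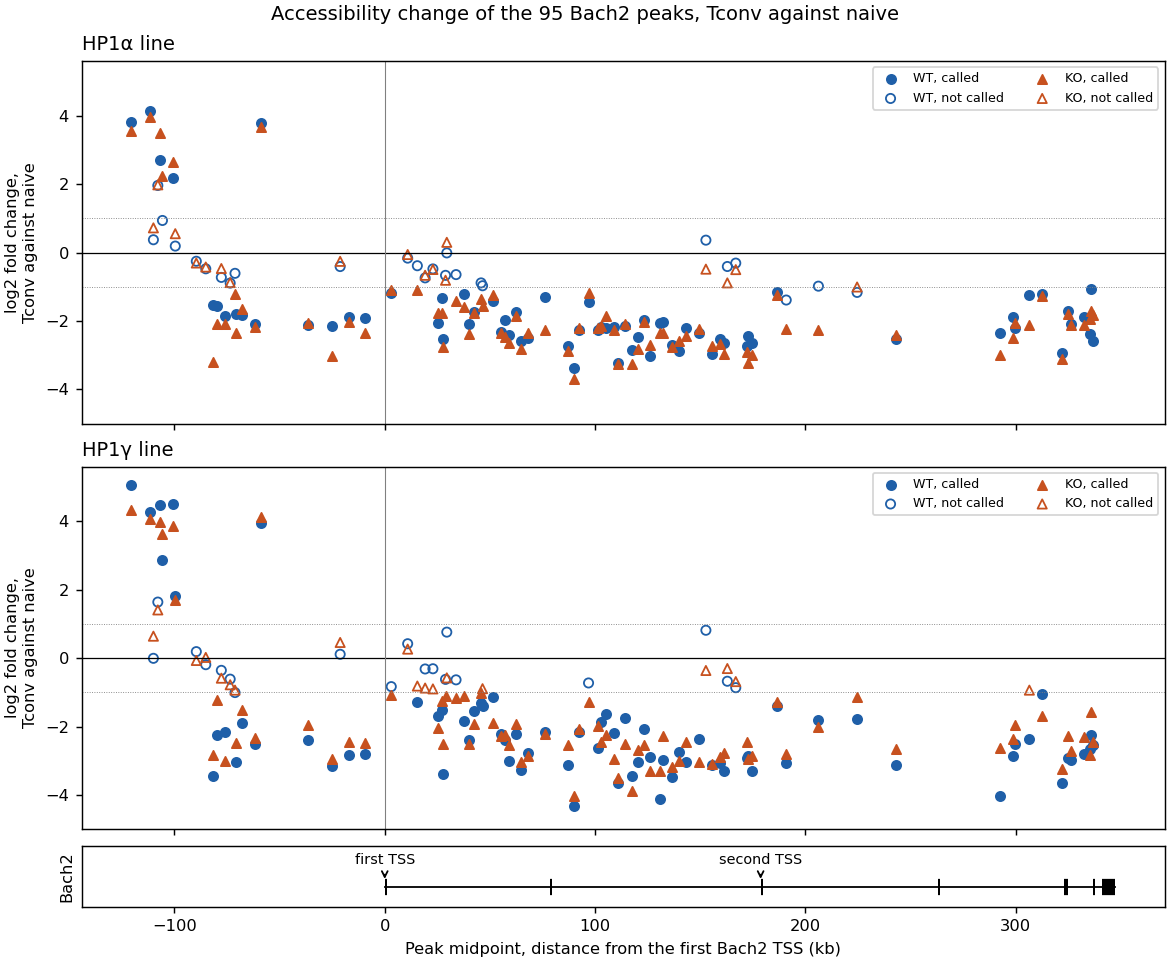
Log2 fold change of Tconv against naive cells (y axis) for each of the 95 peaks by the distance of its midpoint from the first Bach2 TSS (x axis, kb), in WT (circles) and KO (triangles) cells of the HP1α line (top) and the HP1γ line (middle), with the exons of Bach2 at the bottom. Filled symbols are called peaks, which lie above zero in the far upstream cluster and at -58.8 kb and below zero throughout the gene body.

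The promoter peak (chr4:32237791-32245850, 8060 bp, spanning the first exon) was open in all groups and stood 1.78 to 2.29 times lower in Tconv than in naive cells. Its CPM was 219 to 261 in HP1α WT naive, 226 to 238 in HP1α KO naive, 208 to 235 in HP1γ KO naive and 209 to 221 in HP1γ WT naive libraries. Each of these 4 groups overlapped its neighbour in the order of means, and all lay above every Tconv library. The HP1γ WT Tconv libraries had 106 to 123 CPM (mean 115 ± 8.31, SD, n = 3), HP1α KO Tconv 97.5 to 111, HP1γ KO Tconv 95.2 to 108 and HP1α WT Tconv 92.9 to 108. With Treg the levels were 117 in the HP1α KO library, 101 to 109 in HP1γ WT, 84.9 to 108 in HP1γ KO and 82.9 to 87.1 in HP1α WT, and each of these 8 groups overlapped its neighbour in the order of means. The log2 fold change of Tconv against naive was -1.19 (SE 0.11, adjusted p = 8.97e-08) in HP1α WT, -1.08 (adjusted p = 1.33e-07) in HP1α KO and -1.07 (adjusted p = 1.09e-08) in HP1γ KO. In HP1γ WT it was -0.83 (SE 0.09, adjusted p = 9.87e-08), short of the fold threshold.

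Gains were concentrated far upstream. Over the 8 peaks more than 90 kb before the TSS the log2 fold change had its median at 2.08 in HP1α WT, 2.45 in HP1α KO, 3.57 in HP1γ WT and 3.75 in HP1γ KO, with 4, 5, 6 and 6 of them called higher and 0 called lower. The 5 peaks higher in all 4 comparisons were those at -120.7, -111.8, -106.8, -100.6 and -58.8 kb. The -111.8 kb peak (chr4:32126031-32127860) had 4.45, 3.80 and 3.63 CPM in HP1γ WT naive libraries and 64.3, 78.9 and 75.3 in HP1γ WT Tconv. In HP1α WT it had 2.74, 2.67 and 2.31 CPM in naive libraries and 51.9, 31.5 and 46.2 in Tconv. Nearly closed in naive cells, this window became one of the taller peaks of the locus, with a log2 fold change of 4.27 (SE 0.16, adjusted p = 6.72e-13, a 19.3-fold difference) in HP1γ WT and 4.15 (SE 0.22) in HP1α WT. The -58.8 kb peak (chr4:32179291-32180630), which lies within Gm42266, rose from 2.56, 1.80 and 1.75 CPM to 31.5, 30.9 and 27.1 in HP1γ WT cells, a log2 fold change of 3.96 (SE 0.24, adjusted p = 7.54e-11). Naive and Tconv libraries did not overlap at either peak.

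Losses ran through the gene body, where 55 to 61 of 70 peaks were lower and 0 were higher in each comparison. The median log2 fold change there was -2.07 in HP1α WT, -2.17 in HP1α KO, -2.37 in HP1γ WT and -2.30 in HP1γ KO. The intron 2 peak at +125.9 kb (chr4:32362791-32366430) had 92.1, 90.1 and 105 CPM in HP1γ KO naive libraries and 10.98, 9.70 and 7.84 in HP1γ KO Tconv. Its log2 fold change was -3.31 (SE 0.14, adjusted p = 5.44e-12), or 9.93-fold lower, with -2.89 in HP1γ WT, -3.03 in HP1α WT and -2.69 in HP1α KO. The exon 5 peak at +322.2 kb (chr4:32559681-32562090), within the antisense Bach2os, had 44.8, 43.3 and 44.6 CPM in HP1γ WT naive libraries against 4.64, 2.90 and 2.38 in Tconv. That was 12.5-fold lower (adjusted p = 7.43e-12). Of the 12 distal peaks nearest to the Gja10 TSS, 11 or 12 were called lower in each comparison.

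Not all strong peaks followed. The 3 peaks with the highest level per kb over the 12 groups were at -89.6 kb (chr4:32147711-32150420), +10.9 kb (chr4:32246051-32253100) and -73.5 kb (chr4:32163501-32166970), with mean log2 CPM per kb of 5.07, 4.70 and 4.68, and none of them was called in any of the 4 comparisons. The log2 fold change at -89.6 kb was -0.25, -0.30, 0.19 and -0.07 in HP1α WT, HP1α KO, HP1γ WT and HP1γ KO. At +10.9 kb, in intron 1 next to the promoter peak, these values were -0.16, -0.06, 0.42 and 0.26. At -73.5 kb they were -0.89, -0.88, -0.61 and -0.78. Peaks left uncalled in all 4 comparisons had a median width of 1400 bp against 865 bp for those lower in all 4.

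**Figure D2:**
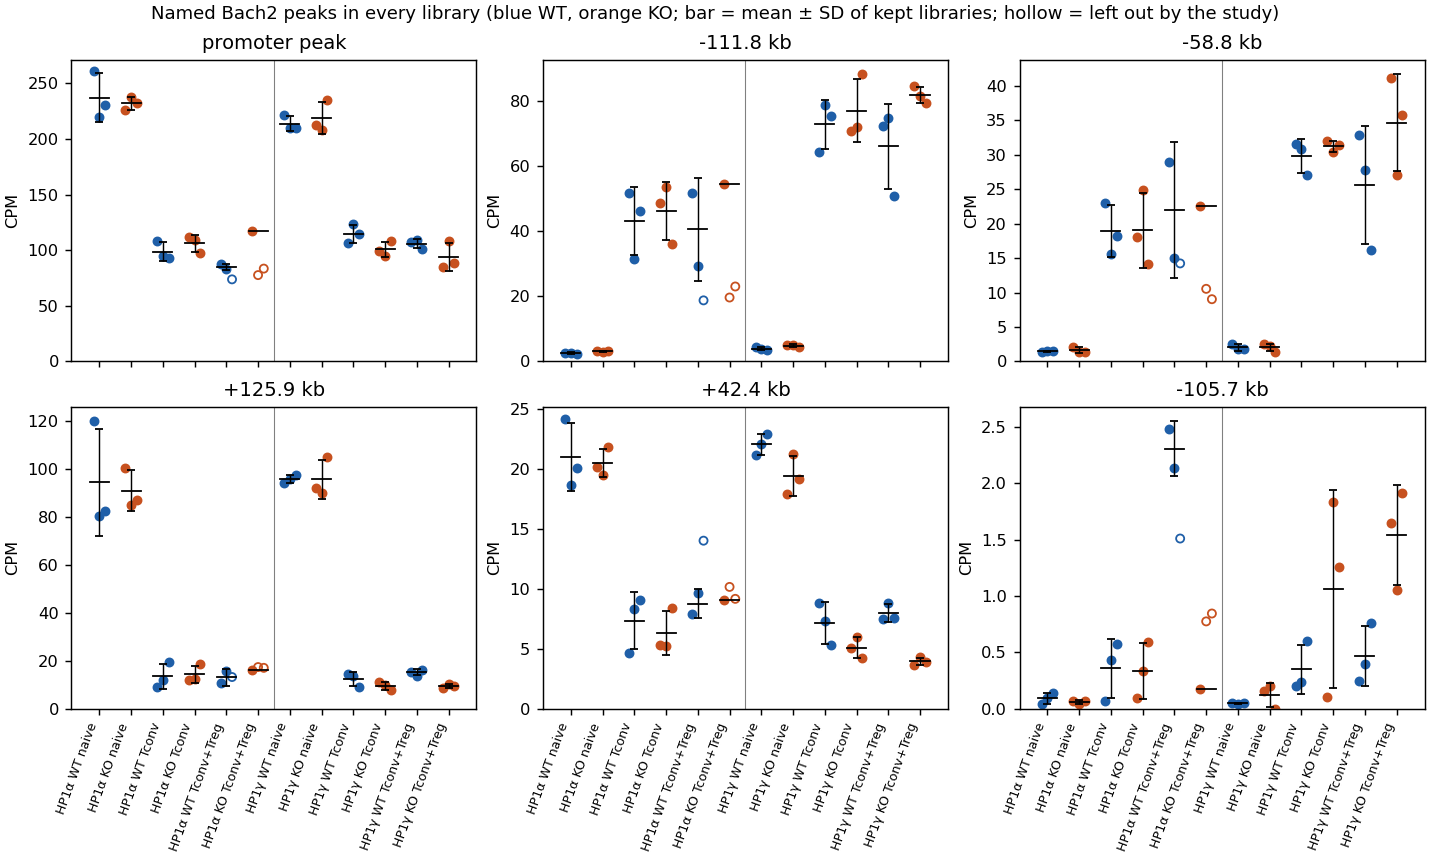
CPM (y axis, linear) of 6 named peaks in each library by group (x axis), with bars for the mean ± SD of the libraries kept and hollow points for the 3 left out. The -111.8 and -58.8 kb peaks have under 6 CPM in every naive library, the promoter and +125.9 kb peaks are highest in naive cells, and the -105.7 kb peak stays under 3 CPM throughout.

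As a whole the locus held 1945.7 ± 289 CPM in HP1α WT naive, 1936.4 ± 134 in HP1α KO naive, 1950.7 ± 13.4 in HP1γ WT naive and 1930.3 ± 91.7 in HP1γ KO naive cells (SD, n = 3). In Tconv it held 890 ± 30.8, 918 ± 24.9, 1094.2 ± 93.7 and 972 ± 21.2 CPM in the same order. With Treg the sums were 954 ± 22.4 (n = 2), 1026.8 (n = 1), 1059.2 ± 78.2 and 988 ± 66.0 CPM. The 4 naive sums lay close together and above all others, the difference between naive cells and Tconv exceeding that between genotypes in either line.

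**Figure D3:**
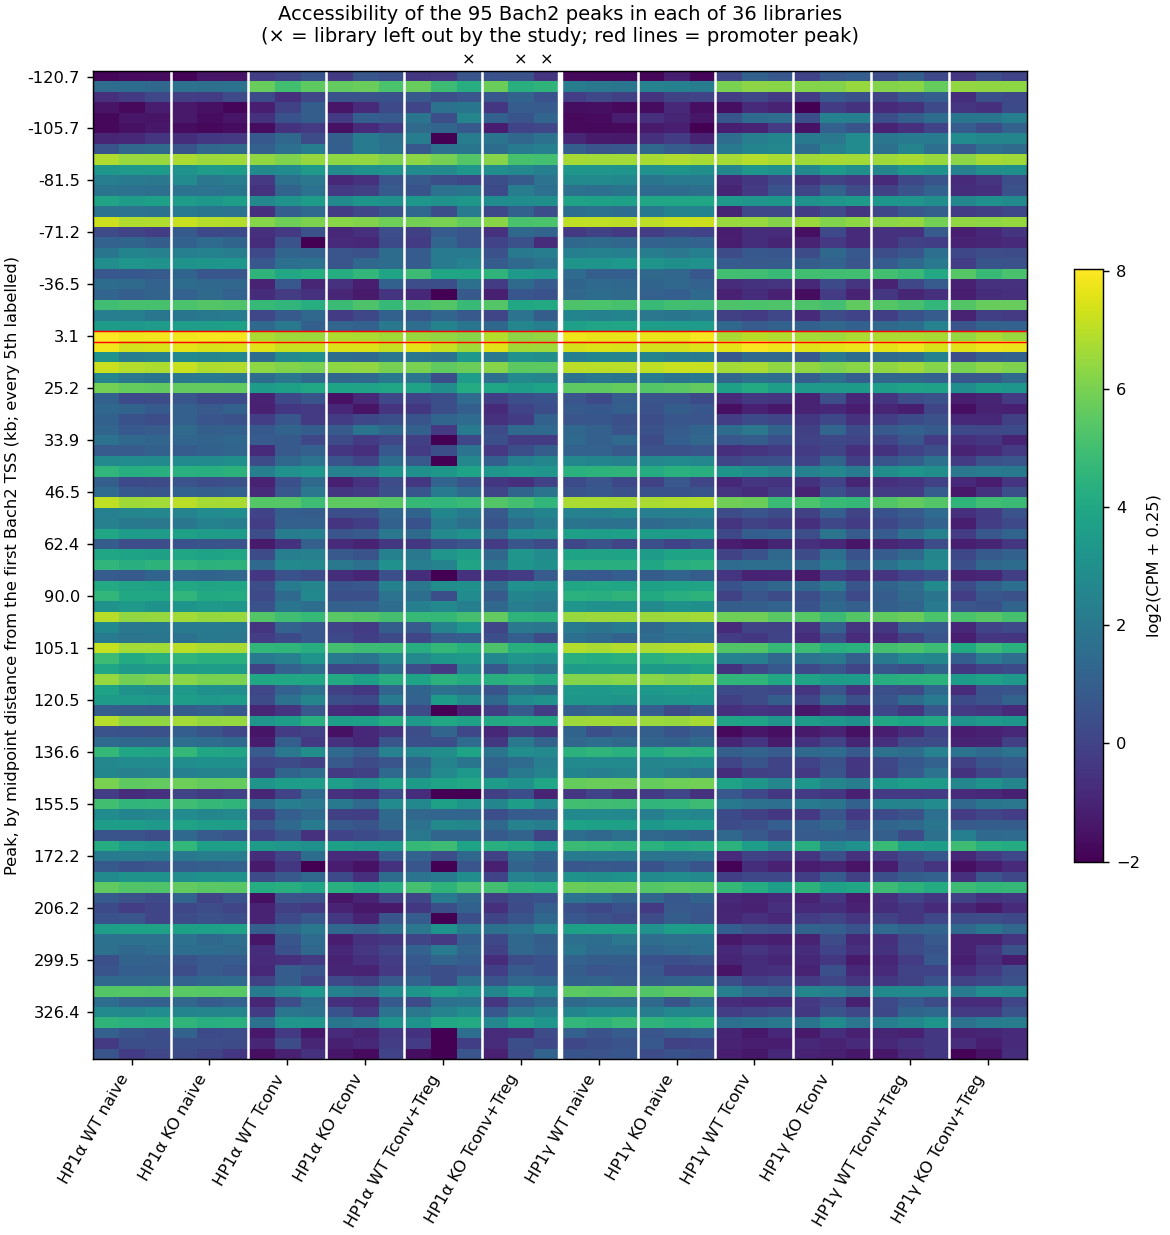
Heat map of log2(CPM + 0.25) (colour) for all 95 peaks in order of position (y axis, kb from the first TSS) in the 36 libraries by line, condition and genotype (x axis), with crosses over the 3 libraries left out by the study and red lines around the promoter peak. Most gene-body peaks are brighter in naive than in other libraries, and the -111.8 kb peak is darker.

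The motif content of the locus was compared with that of all peaks. TGANTCA, searched on both strands, occurred in 35 of 95 peaks (36.8%, against 30.6% of all peaks), and ATCAAAG in 25 (26.3% against 16.2%). The RUNX core TGTGGTT occurred in 25 (26.3% against 29.0%) and the ETS core CAGGAAG in 36 (37.9% against 43.0%). Matches per kb, which allow for width, were 0.428 against 0.377 for TGANTCA and 0.298 against 0.170 for ATCAAAG. No TGANTCA match overlapped an ATCAAAG match. Among the 5 peaks higher in all 4 comparisons, 3 held TGANTCA and 1 held ATCAAAG, and among the 62 lower in all 4, 22 and 17 did. These are descriptions of letters in the windows and were not tested.

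The next comparison was the study's own, of KO with WT cells in each condition. In naive cells the Bach2 locus gave 0 calls in either line. In the HP1α line 1 of 95 peaks had an unadjusted p under 0.05 (median log2 fold change 0.02), where 0.00559% of all peaks were called and 1.17% had such a p. In the HP1γ line 7 did (median -0.09), where 0.14% of all peaks were called and 8.98% had such a p. DESeq2 also gave 0 calls in both, where it called 0.00979% of all peaks in the HP1α line and 3.27% in the HP1γ line. The promoter peak differed by -0.03 (SE 0.11) in HP1α and 0.06 (SE 0.09) in HP1γ naive cells.

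In Tconv without Treg the HP1α comparison again called 0 peaks, by edgeR and by DESeq2 (0.021% and 0.0168% of all peaks), and the median was -0.07. With 1 library left out it ran from -0.80 (without WT replicate 1) to 0.15 (without WT replicate 2), and it was -0.35 without KO replicate 3. An unadjusted p under 0.05 was reached by 3 peaks, where 4.82% of all peaks had one. The HP1γ comparison gave 1 lower call and 0 higher (median 0.04, -0.12 to 0.15 with 1 library left out), where 3.35% of all peaks were called, 1.66% lower. That was the intron 1 peak at +29.5 kb (chr4:32267971-32268390), with 2.70, 3.69 and 2.02 CPM in WT and 0.69, 2.14 and 0.95 in KO libraries. Here 1 KO library overlapped the WT range. Its log2 fold change was -1.29 (SE 0.31, adjusted p = 0.0212). The count fell to 0 without WT replicate 1, WT replicate 2 or KO replicate 3 (1.78%, 1.5% and 1.34% of all peaks called in the same fits). It rose to 3 without KO replicate 1, of which 2 were higher, and to 3 without WT replicate 3 (4.85% and 5.3% of all peaks).

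In Tconv exposed to Treg, HP1γ KO cells had 9 peaks called lower and 2 higher than WT. This was close to the background, since 11.9% of all peaks were called, 5.38% lower and 6.48% higher, against 11.6% of the locus. Of the 95 peaks, 78 had a lower estimate in KO cells, and the median log2 fold change was -0.70 against -0.02 for all peaks. At an unadjusted p under 0.05, 37 were lower and 6 higher, where 35.8% of all peaks had such a p. In 24 peaks all KO libraries lay below all WT libraries and in 5 above (30.5% together, against 31.8% of all peaks). Of all peaks, 16.4% lay below and 15.3% above. The median was -0.25 in the 15 peaks with a mean log2 CPM of at least 4, -0.79 in the 33 from 1 to 4 and -0.81 in the 47 under 1, where all peaks of these levels had 0.11, -0.12 and -0.12.

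The 9 lower peaks lay at -61.8, +15.5, +33.9, +42.4, +55.5, +57.2, +68.0, +90 and +325.1 kb, 6 of them in intron 1, with log2 fold changes from -1.26 to -1.003. The smallest p was at +42.4 kb (chr4:32279901-32282270), where WT Tconv+Treg had 7.50, 8.84 and 7.57 CPM and KO Tconv+Treg 3.64, 4.27 and 3.88. The 2 groups did not overlap, and the log2 fold change was -1.01 (SE 0.21, adjusted p = 0.00276, 2.02-fold lower). Without Treg the same peak had 8.85, 7.32 and 5.31 CPM in WT and 5.05, 5.95 and 4.20 in KO cells, a log2 difference of -0.55 (SE 0.19, adjusted p = 0.0962). In naive cells it was -0.16 (SE 0.12). The peak at +90 kb, whose window holds 2 ATCAAAG matches, had a log2 fold change of -1.17 (SE 0.40, adjusted p = 0.0442). Of the 9 peaks, 8 were also lower in Tconv than in naive cells in each genotype, as were 69 of the 95 in WT and 70 in KO cells. The naive and Tconv libraries also enter this comparison, through the spread estimated over all 18 libraries of the line.

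Both peaks called higher in HP1γ KO Tconv+Treg were in the far upstream cluster, and both were also higher in Tconv than in naive cells of the line. At -105.7 kb (chr4:32132861-32133180) the WT libraries had 0.24, 0.40 and 0.76 CPM (12, 16 and 16 reads) and the KO libraries 1.65, 1.05 and 1.92 (97, 60 and 72 reads), a log2 fold change of 1.91 (SE 0.54, adjusted p = 0.0155). At -106.8 kb (chr4:32131681-32132180) WT had 1.07, 1.79 and 2.67 CPM and KO 3.52, 3.44 and 4.79, a log2 fold change of 1.22 (SE 0.41, adjusted p = 0.0384). Both are low peaks whose groups did not overlap.

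Calls in this comparison rested on single libraries. They numbered 0 without KO replicate 1 or WT replicate 2 (5.2% and 5.21% of all peaks called in the same fits), 23 without WT replicate 1 (13%), and 5 (3 higher and 2 lower) without WT replicate 3 (10.9%). With offsets for GC content 3 peaks were higher and 2 lower (8.02% and 3.99% of all peaks). The locus median ranged from -0.57 to -0.79 over the alternatives that keep all libraries. Pooled promoter levels of the 3 of 5 myeloid genes with a peak were 9.43 to 12.4 CPM per kb in HP1γ KO Tconv+Treg and 7.84 to 8.44 in WT, those of 3 B cell genes with a peak (Cd79b, Pax5 and Ebf1) were 6.90 to 8.39 and 4.78 to 6.22, and Lyz2, Csf1r, Cd79a and Ms4a1 had no promoter peak. Members of both lists differed in direction. Cebpa averaged 6.90 CPM per kb in WT and 15 in KO, whereas Itgam had 5.03 and 2.17 and Spi1 9.76 and 7.55. Pax5 had 5.53 in WT and 8.41 in KO, Ebf1 5.68 and 8.42, and Cd79b 3 and 1.15. The 2 Treg genes had a pooled level of 14.1 to 14.9 in KO and 10.2 to 13.0 in WT, with Foxp3, the defining factor, at 16 in WT and 15.6 in KO and Ikzf2 at 7.28 and 13.1. Their part in the result was not tested.

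Exposure to Treg was then compared within each genotype. In HP1γ WT cells 0 of the 95 peaks were called (0.137% of all peaks), DESeq2 called 5 (3.26% of all peaks), and at an unadjusted p under 0.05 33 were higher and 1 lower in Tconv+Treg, where 20.3% of all peaks had such a p. In all, 71 peaks had a higher estimate with Treg, and the median log2 fold change was 0.59 against 0.03 for all peaks. The estimates were larger at weaker peaks, where those of all peaks were larger too. The median was -0.12 at a mean log2 CPM of at least 4, 0.67 from 1 to 4 and 0.82 under 1, where all peaks had -0.17, 0.03 and 0.33. In HP1γ KO cells the median was -0.11 (-0.26 to 0.05 with 1 library left out), with 1 peak higher and 1 lower (8.15% of all peaks called, 6.1% higher and 2.06% lower). The test of the difference between these 2 effects gave 0 calls (0.0014% of all peaks), and 2 with DESeq2 (1.12%). At an unadjusted p under 0.05, 14 differences were lower in KO cells and 1 higher (12.8% of all peaks), and the median over the locus was -0.72 against -0.04 for all peaks (-0.44 without KO Tconv+Treg replicate 1, -0.45 without KO Tconv replicate 2).

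**Figure D4:**
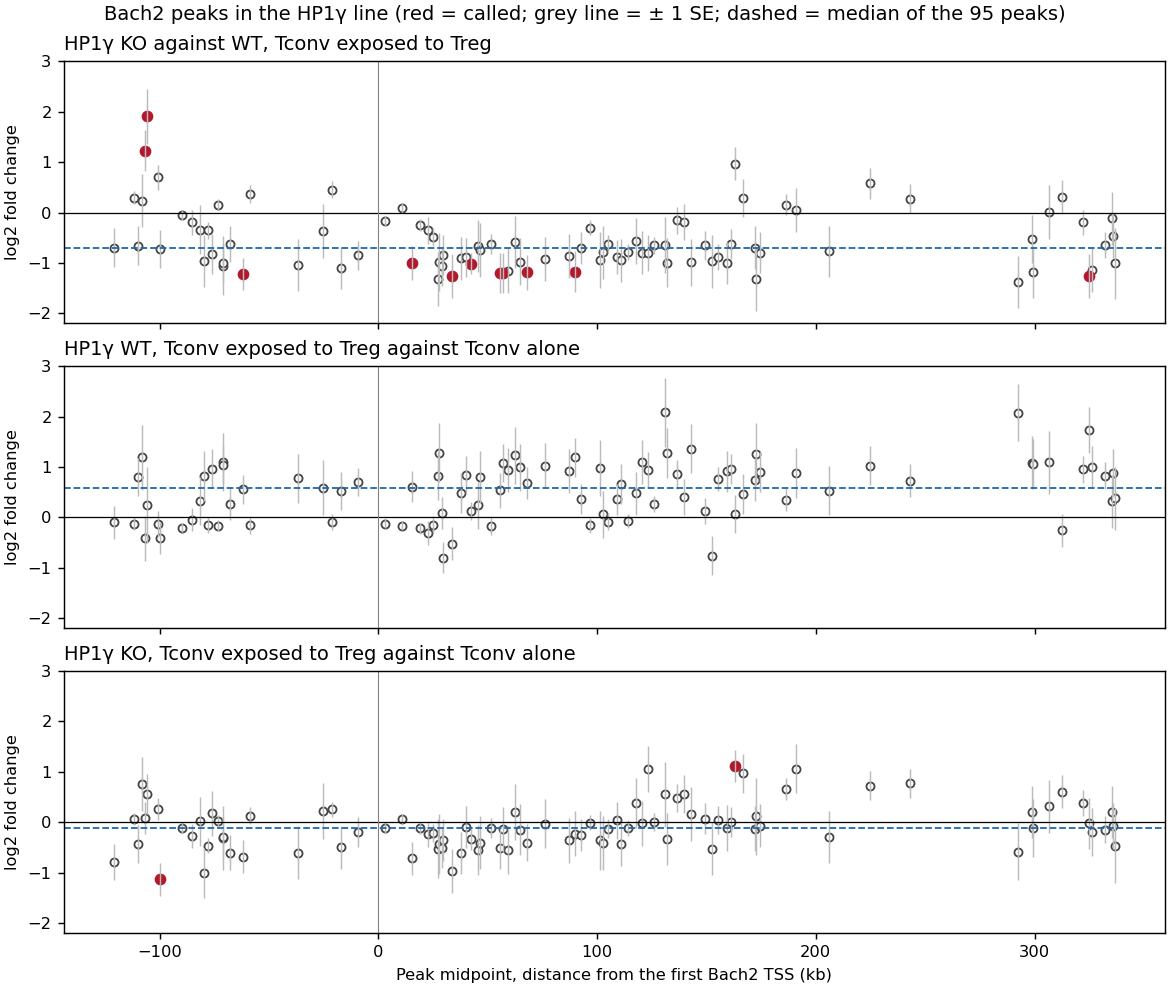
Log2 fold changes of the 95 peaks in the HP1γ line (y axis, grey lines ± 1 SE) by distance of the peak from the first Bach2 TSS (x axis, kb), for KO against WT with Treg (top) and for Treg exposure in WT (middle) and KO cells (bottom), with called peaks in red. The dashed medians lie at -0.70, 0.59 and -0.11.

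The peaks called for Treg exposure were few and low. In HP1γ KO cells the intron 2 peak at +162.9 kb (chr4:32401451-32401800) had 1.59, 1.62 and 1.48 CPM without and 4.80, 2.46 and 2.56 with Treg, a log2 fold change of 1.11 (SE 0.32, adjusted p = 0.0245). The -99.6 kb peak (chr4:32138811-32139510) had 2.69, 5.10 and 6.89 CPM without and 1.58, 2.91 and 2.53 with Treg, a log2 fold change of -1.13 (SE 0.33, adjusted p = 0.0289), and its groups overlapped. Calls fell to 0 without KO Tconv+Treg replicate 1 or KO Tconv replicate 3 (2.98% and 5.61% of all peaks called in the same fits). They fell to 1 without KO Tconv+Treg replicate 3 (7.86%). In HP1α WT cells 2 peaks were higher with Treg and 0 lower (6.77% of all peaks called, 4.92% higher). These were again +162.9 kb, with 0.75, 1.26 and 0.43 CPM without and 3.83 and 2.14 with Treg (log2 fold change 2.10, SE 0.55, adjusted p = 0.0251), and -105.7 kb, with 0.07, 0.43 and 0.57 CPM without and 2.48 and 2.14 with Treg (3.73, SE 0.76, adjusted p = 0.00376). The +162.9 kb peak was thus called higher with Treg in HP1α WT and in HP1γ KO cells, and in HP1γ WT cells its value was 0.07 (SE 0.38).

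The HP1α WT estimates changed when log2 depth was a covariate and when single libraries were left out, and depth was not told apart from the libraries that differ in it. WT Tconv+Treg replicate 2 had the fewest reads in peaks, 1486053. The locus median for Treg exposure was 0.67 against 0.10 for all peaks, and -0.26 against -0.06 with log2 depth as a covariate. It was -0.09 without WT Tconv replicate 1, 1.08 without WT Tconv replicate 2 and 0.44 without WT Tconv+Treg replicate 2. Calls fell to 0 without WT Tconv replicate 1 and rose to 4 without WT Tconv replicate 2. How the share of all peaks moved in these fits is not given, so the counts are not a result about the locus. Without either WT Tconv+Treg library that group held 1 library, and no count is read from it. Pooled promoter levels of the same 3 B cell genes were 8.69 to 10.02 CPM per kb in these WT Tconv+Treg libraries and 4.31 to 5.10 in WT Tconv. Pax5 averaged 4.77 CPM per kb in WT Tconv and 13.7 with Treg, Ebf1 4.53 and 6.76, and Cd79b 3.70 and 2.41. The pooled level of the 7 CD4 T cell markers was 12.1 to 16.8 in WT Tconv and 8.97 to 11.9 with Treg. The part of these genes in the result was not tested. In HP1α KO cells, with 1 Tconv+Treg library, 0 peaks were called by edgeR or DESeq2 (0.548% of all peaks by edgeR), 6 had an unadjusted p under 0.05 (8.54% of all peaks), and the median was 0.30 (0.16 without KO Tconv replicate 1, 0.60 without KO Tconv replicate 3, and 0.66 with all 18 HP1α libraries).

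With Treg, HP1α KO cells had 1 peak lower than WT and 0 higher, where 1.63% of all peaks were called, 1.42% lower. It was the -105.7 kb peak, with 2.48 and 2.14 CPM in WT libraries (33 and 4 reads) and 0.17 in the KO library (9 reads), a log2 fold change of -3.83 (SE 0.87, adjusted p = 0.0229). With all 18 HP1α libraries it was -2.67 (adjusted p = 0.0659), the libraries left out having 1.51 CPM in WT and 0.77 and 0.84 in KO. Without either WT library each group held 1 library, and the loss of the call there is not a result about this peak. The spread of the KO group, which has 1 library, was taken from the other groups. The locus median was -0.43 (-0.11 for all peaks), -0.28 without WT replicate 2, -0.25 with all 18 HP1α libraries and 0.60 (0.05 for all peaks) with log2 depth as a covariate. Pooled promoter levels of the same 3 B cell genes were 4.9 CPM per kb in the KO library and 8.69 to 10.02 in WT. Cd79b alone went the other way, at 2.65 and 2.41. The 7 CD4 T cell markers had 15.5 in KO and 8.97 to 11.9 in WT. The part of these genes was not tested. The tests of the difference between the HP1α effects in Tconv+Treg and Tconv, and in Tconv and naive cells, each gave 0 calls with edgeR and with DESeq2 (0.0461% and 0% of all peaks with edgeR). In each, 2 peaks had an unadjusted p under 0.05, where 10.3% and 1.8% of all peaks did. For the HP1γ effects in Tconv and naive cells, 0 were called (0.014% of all peaks), 9 had an unadjusted p under 0.05 (9.51% of all peaks), and DESeq2 called 0 (1.93% of all peaks).

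Genes with which BACH2 acts were examined through the peaks nearest to them. Among its small MAF partners and its paralog, 18 of 42 peaks were lower and 3 higher in Tconv than in naive cells in HP1γ WT (median -0.45), where 22% of all peaks were lower and 24.5% higher. All 18 lower peaks belonged to Bach1, the paralog, which had 25 peaks in all and a log2 fold change of -3.88 (SE 0.18, adjusted p = 2.61e-12) at its peak of smallest p. Among 10 AP-1 and IRF factors, which share sites with BACH2, 44 of 106 peaks were higher and 10 lower (median 0.53). Batf had 14 of 17 peaks higher, and Irf4 had 14 higher and 3 lower of 27. Jun had 5 higher and 3 lower of 20, Fosl2 had 4 and 2 of 15, Fos had 2 and 2 of 15, Batf3 had 3 higher of 6 and Fosb 2 of 3, and the single peaks of Junb, Jund and Fosl1 were not called. Among 10 genes known to rise where BACH2 is missing, such as Prdm1, which encodes the effector regulator BLIMP1, 157 of 220 peaks were higher and 10 lower (median 2.88). Klrg1, a receptor of late effector cells, had 12 of 12 peaks higher, Il1rl1, the IL-33 receptor, 19 of 20, Prdm1 27 of 39, and Ifng 28 higher and 2 lower of 34. Among 12 genes of the naive state, 278 of 465 peaks were lower and 40 higher (median -1.38), with 84 of 96 lower at Foxp1, a quiescence factor, and 14 of 19 at Ccr7, the lymph node homing receptor. Ets1 went the other way, with 24 higher and 11 lower of 71, and Myb had 4 and 4 of 18 and Klf2 2 and 2 of 11. In HP1α WT cells the counts of higher and lower peaks were 6 and 18 of 42, 43 and 9 of 106, 147 and 8 of 220, and 34 and 240 of 465 in the same order of lists, where 24.9% of all peaks were higher and 17.5% lower.

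In HP1γ KO against WT Tconv+Treg, the naive-state list had 53 of 465 peaks lower and 10 higher (median -0.54), where 5.38% of all peaks were lower and 6.48% higher, with 16 lower at Foxp1, 12 at Satb1, 8 at Lef1 and 6 at Foxo1. The genes known to rise without BACH2 had 27 of 220 lower and 16 higher (median -0.32), and the AP-1 and IRF list had 10 of 106 lower and 9 higher (median 0.00). Batf had 4 peaks higher, the one of smallest p at 1.48 (SE 0.20, adjusted p = 0.000122). Bach1 had 1 higher and 1 lower. Without Treg, 28 of 220 peaks of the genes known to rise without BACH2 were lower in HP1γ KO and 0 higher, where 1.66% of all peaks were lower and 3.35% were called in either direction. These included 9 at Gata3 and 8 at Il1rl1, both of type 2 helper cells. List counts were taken from the fit of all HP1γ libraries. Without Treg, lower calls over all peaks fell to 0.308% without KO replicate 3 and to 0.103% with only the groups compared. With Treg they fell to 1.83% without KO replicate 1 and 1.86% without WT replicate 2.

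**Figure D5:**
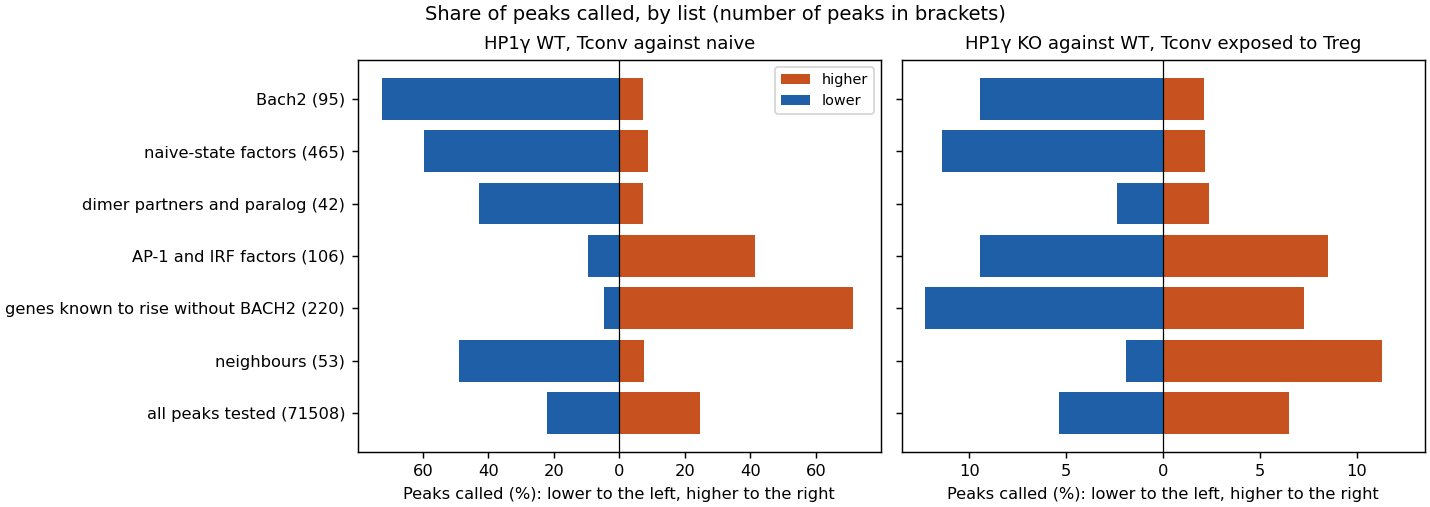
Percent of peaks called higher (right) and lower (left, x axis) at Bach2, at the peaks of each gene list and over all peaks (y axis, number of peaks in parentheses), for HP1γ WT Tconv against naive cells (left panel) and HP1γ KO against WT with Treg (right panel, own scale). Bach2 and the naive-state factors were mostly lower in Tconv and genes known to rise without BACH2 mostly higher.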

How the data were processed

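ATAC-seq was made from 50000 cells per library. According to the study's methods and the submitters' processing notes, reads were trimmed with Trim Galore (version 0.6.7), aligned with BWA to GRCm39, peaks were called per sample with HMMRATAC and merged with bedtools, and the deposited values are raw counts of reads per consensus peak from featureCounts (version 2.0.3). SAMtools and deepTools are also named. Here 3 zero-width intervals were left out.

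The counts were fitted per line in R 4.3.3 with edgeR 4.0.16 (filterByExpr, TMM, quasi-likelihood F test, two-sided, Benjamini-Hochberg over all peaks, 1 mean per group), with 15 HP1α and 18 HP1γ libraries, and called at an adjusted p under 0.05 and a log2 fold change over 1 in size. Log2 CPM used a prior count of 2. Depth was 1486053 to 96806542 reads in peaks, and the number of libraries limits the precision. Genes and TSSs were from GENCODE vM39. The fit was tested on simulated counts: of 200 peaks changed by 2 on the log2 scale, 84.0% were recovered for HP1γ KO against WT in Tconv (71505 peaks), 73.5% for HP1α in Tconv (71508 peaks) and 30.0% for HP1α in Tconv+Treg (71507 peaks), with 6, 23 and 1 unchanged peaks also called.

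Replicate numbers are shared between groups. The deviations of same-numbered libraries correlated above 0.1 in all 3 pairs for HP1α KO against WT naive (0.50, 0.25 and 0.27), HP1γ KO against WT Tconv+Treg (0.28, 0.15 and 0.32) and HP1γ WT Treg exposure (0.29, 0.20 and 0.23). For these, fits with the replicate as a block were compared.

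Peaks given in every library were those within 1 kb of a Bach2 TSS, the 2 of smallest p in each direction for HP1α KO, HP1γ KO, Treg exposure and Tconv against naive, and the 3 with the highest level per kb. The +51.3 and +90 kb windows were added after their values were seen. The peaks, the rule and the gene lists were chosen with earlier results of these data known. Alternatives were DESeq2 1.42.0, library size alone, no filter, GC offsets, log2 depth, a replicate block, other sets of libraries and each replicate left out.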

Additional observations from a re-analysis of the deposited data

How the results depend on the processing

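Counts of called Bach2 peaks in the 4 comparisons of Tconv with naive cells kept their direction and stayed within 1.5 times under every alternative run. With all their libraries they ranged from 55 to 77 in HP1α WT (70 as reported) and 61 to 83 in HP1α KO (78). In HP1γ WT the range was 59 to 77 (76), and in HP1γ KO 60 to 77 (77). The low ends 55, 61, 59 and 60 equal the counts of the 70 gene-body peaks alone in the reported fit. They come from counting fewer peaks, not from a refit that lost calls. The lowest count of the refits over the whole locus is not given. With 1 library left out the counts ranged from 50 to 83. The 4 named peaks of these comparisons kept their calls throughout, in 16 alternatives each. Over all named peaks 143 alternatives kept the call, 46 lost it and 0 reversed it. All 46 losses were at peaks named for HP1 or Treg, where 5 to 12 alternatives kept a call and 4 to 8 lost it. The calls for HP1 and Treg were less stable, and the causes were not tested. The share of all peaks called also moved between these fits and with the library left out. A count is therefore not a result about the locus alone, and 0 does not mean the same in each fit. For HP1α KO against WT with Treg (1) the count was 0 with DESeq2, with an earlier form of the quasi-likelihood fit (added after seeing the data), with log2 depth, with all 18 libraries, with only the groups compared and in the gene body only, and 1, now higher, with the replicate block and log2 depth. For HP1α WT Treg exposure (2) it was 8 with DESeq2, 4 with the earlier fit, 5 with the replicate block, 5 with the block and GC offsets, 5 with all 18 libraries, 0 with log2 depth and 1 in the gene body only. For HP1γ KO against WT Tconv (1) it was 0 with the earlier fit (1.81% of all peaks) and 0 with only the groups compared (0.651%). It was 2 with the block and GC offsets (3.73%). For HP1γ KO against WT with Treg (11) it was 5 with GC offsets (3 higher), 7 with log2 depth, 2 with only the groups compared, and 12 with the replicate block. HP1γ WT Treg exposure (0) gave 5 with DESeq2 (3.26% of all peaks) and 1 with the earlier fit (0.959%). HP1γ KO Treg exposure (2) gave 0 with the earlier fit (4.69%), 0 with only the groups compared (0.856%) and 1 in the gene body only. The HP1γ difference in Treg exposure (0) gave 2 with DESeq2 (1.12%). Leaving out single libraries gave 0 for HP1α KO against WT with Treg, 0 to 4 for HP1α WT Treg exposure, 0 to 1 for the HP1α difference in Treg exposure, 0 to 3 for HP1γ KO against WT Tconv (3 with 2 higher without KO replicate 1), 0 to 23 for HP1γ KO against WT with Treg (5 with 3 higher without WT replicate 3), 0 to 2 for HP1γ KO Treg exposure and 0 to 1 for the HP1γ difference between Tconv and naive. Leaving out the only HP1α KO Tconv+Treg library leaves no comparison. Where the replicate numbers pair the libraries, the block changed no count by over 1.5 times; HP1α WT Treg exposure, where it did, showed no such pairing. Library size alone moved the median of all peaks for HP1γ WT Treg exposure from 0.03 to 0.16, and that of the locus from 0.59 to 0.71. The -105.7 kb peak had at most 97 reads in a library, so its calls rest on few reads.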

Other observations

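Among genes with at least 20 nearest peaks (458 genes), Bach2 had the fourth largest number of peaks lower in Tconv than in naive cells in each of the 4 comparisons. In HP1γ WT cells, 57 of its 83 nearest peaks were lower, after Foxp1 (84 of 96), Satb1 (68 of 82) and Dad1 (67 of 86), the last of which lies beside the T cell receptor α locus, and before Tox (46 of 88) and Foxo1 (43 of 67). By share of peaks lower, 68.7%, it ranked 36, the median gene having 25.0%.

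The 12 neighbouring genes on chromosome 4 were examined through 53 peaks. In HP1γ WT cells 26 were lower and 4 higher in Tconv than in naive cells (median -0.94), where 22% of all peaks were lower and 24.5% higher. Ankrd6 had 8 of 14 lower, and Gabrr2, a GABA receptor subunit gene, had 3 of 4, with a log2 fold change of -4.18 (SE 0.17, adjusted p = 9.39e-13) at its peak of smallest p. Gja10, the next gene after Bach2, had 2 peaks of its own and 0 calls. Ube2j1 had 1 peak higher, with a log2 fold change of 3.41 (SE 0.34, adjusted p = 4.37e-08). In HP1γ KO against WT Tconv+Treg, 6 of the 53 peaks were higher and 1 lower (6.48% and 5.38% of all peaks), and 5 of the higher ones belonged to Ankrd6. Of the 95 Bach2 peaks, 9 were lower and 2 higher in that comparison, and the difference between the 2 sets was not tested.

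The promoter peaks whose mean log2 CPM over the 12 groups was most like that of the Bach2 promoter peak belonged to Card6 (Pearson's r 0.996), Aldh2 (0.991), Ccr7 (0.990), Filip1l (0.988) and Pik3ip1 (0.987), among 11844 genes. The median gene had 0.49, and 6.20% of genes exceeded 0.9. The 12 groups share the contrast of naive cells with Tconv. Over the 8 groups of Tconv alone, the same 5 genes had 0.950, 0.810, 0.812, 0.758 and 0.702, where the median gene had 0.35 and 20.3% of genes exceeded 0.7. These 5 genes were chosen on values that include those 8 groups.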
